A study of Mus musculus with 165 samples.

Results

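The genes described here are 10 genes of bile acid synthesis and transport in mouse liver: Cyp7a1, Cyp8b1, Cyp27a1, Baat, Abcb11, Abcb4, Slc10a1, Slc51b, Nr0b2 and Nr1h4. They were found by symbol among the 55471 Ensembl gene identifiers of the liver count table, and all 10 were among the 15579 genes that passed the filter on low counts. The livers came from male mice of the inbred strain C57BL/6J/Ukj at 3 months (n = 16), 9 months (n = 16), 15 months (n = 16), 24 months (n = 17) and 28 months (n = 18). The mice were untreated, were kept to grow old, and carried no engineered allele that the labels name. Each liver gave 1 library of polyadenylated RNA, made in 1 of 3 library preparations that each held 4 to 7 livers of every age. The time of day and the feeding state at collection were not given in the sources used here.

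Bile acids are made from cholesterol in hepatocytes, conjugated there to an amino acid and pumped into bile, and most of them return from the gut through the portal blood and are taken up again. Cyp7a1 is the rate-limiting enzyme of the main route, Cyp27a1 starts the alternative route and oxidises the side chain, Cyp8b1 directs intermediates to cholic acid, and Baat joins bile acids to taurine or glycine. Nr1h4 encodes the bile acid receptor FXR, which is known to induce Nr0b2, a nuclear receptor without a DNA-binding domain that represses Cyp7a1 and Cyp8b1, and to induce the export pump Abcb11.

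Promoters were taken from RefSeq (GRCm38.p6), as the 250 bases before and 50 bases after a start in that table, and matched 8 of the 10 genes, all but Cyp7a1 and Baat. For Nr1h4 that start is internal: its window, at chr10:89506609-89506908, lies inside the gene as annotated. The second Slc10a1 window and the start used for Slc51b also lie inside their annotated genes. Promoters of 3 genes that were lower at 28 months are printed, chosen after the matches were seen, because each holds one of the longer nuclear receptor motifs searched. Capitals mark the match, and all are written 5′ to 3′ on the gene's own strand. The Abcb11 promoter lies on the minus strand at chr2:69342567-69342866, the Cyp8b1 promoter on the minus strand at chr9:121916256-121916555, and the Nr0b2 promoter on the plus strand at chr4:133553126-133553425.
Abcb11: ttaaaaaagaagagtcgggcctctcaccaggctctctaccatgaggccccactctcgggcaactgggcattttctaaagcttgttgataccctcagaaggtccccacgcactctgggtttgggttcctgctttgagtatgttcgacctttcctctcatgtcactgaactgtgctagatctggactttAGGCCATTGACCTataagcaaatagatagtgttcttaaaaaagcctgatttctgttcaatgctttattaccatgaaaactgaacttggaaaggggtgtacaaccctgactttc
Cyp8b1: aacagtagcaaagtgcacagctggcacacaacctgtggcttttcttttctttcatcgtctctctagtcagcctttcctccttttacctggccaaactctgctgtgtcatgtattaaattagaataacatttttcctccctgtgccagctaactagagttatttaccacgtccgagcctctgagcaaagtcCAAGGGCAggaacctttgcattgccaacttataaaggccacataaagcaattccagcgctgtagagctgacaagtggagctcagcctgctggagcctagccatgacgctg
Nr0b2: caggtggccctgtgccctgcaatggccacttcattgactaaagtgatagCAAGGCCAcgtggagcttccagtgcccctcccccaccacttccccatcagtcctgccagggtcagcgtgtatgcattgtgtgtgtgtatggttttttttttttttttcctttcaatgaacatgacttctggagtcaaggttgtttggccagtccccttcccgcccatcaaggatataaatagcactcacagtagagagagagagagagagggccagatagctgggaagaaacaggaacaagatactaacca

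The Abcb11 match was to AGGNCANTGNCCT, a relaxed form of the inverted repeat to which FXR binds as a pair with RXR, and it began 63 bases before the gene's start. On both strands of 32851 promoters of the same length, 0.0883% held these letters and 0.00913% held the strict form AGGTCANTGACCT, which no promoter of the 10 genes held. The matches in Cyp8b1, 60 bases before the start, and in Nr0b2, 201 bases before it, were to CAAGGNCA, letters typical of sites for the nuclear receptor Nr5a2. These letters stood in 6.71% of promoters. The half-site AGGTCA, found in 16.3% of promoters, lay in those of Abcb11 (inside the repeat), Slc51b, Nr1h4 and the second of the Slc10a1 promoters. The letters TTATGNAA, a form of the D-box bound by Dbp, stood in the promoters of Cyp27a1 and Slc10a1 and in 3.38% of all promoters. The Abcb4 promoter held none of the 5 motifs searched. A match of letters is a description and not a measured binding site.

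Library depth ran from 5823039 to 57490197 counts. Hepatocyte markers were abundant at every age, with summed medians of 103461 CPM (counts scaled to the size of each library) at 3 months and 111048 CPM at 28 months. Between 3 and 28 months 30.0% of all tested genes fell and 31.9% rose. Of these 10 markers, 3 fell and none rose, the steepest being Ttr (log2 fold change -0.77) and Apoa2 (-0.52). All 9 leukocyte markers and all 6 Kupffer cell markers were higher at 28 months, led by Ms4a1 (3.56), Cd79a (3.01) and Marco (3.04). Their summed levels ran from 42.3 to 219.7 CPM at 3 months and from 75.2 to 758 CPM at 28 months for leukocytes, and from 259 to 960.0 CPM and 429 to 4019.9 CPM for Kupffer cells. Of 8 tested cholangiocyte markers 4 rose and 1 fell (Krt7 1.18), of 6 stellate and fibroblast markers 4 rose (Dcn 0.81), and of 5 endothelial markers 1 rose and 1 fell (Pecam1 0.25, Clec4g -0.34). Gut and pancreas lists had few tested genes, namely Vil1, which rose, and Fabp2 (-1.28) for the gut and Cela2a (-1.30) for the pancreas. Summed pancreatic markers had medians of 0.464 CPM at 3 months and 0.613 CPM at 28 months, and the highest livers of those ages were at 9.65 and 119.6 CPM. The 7 calls of the 10 genes at 28 months held with any 1 liver left out. No gene of these lists was without counts. In 11 livers, 4 of 24 months and 7 of 28 months, leukocyte, Kupffer cell or cholangiocyte markers exceeded 3 times the median of all livers or hepatocyte markers fell under 0.5 times it, and the calls of the 10 genes are given with and without them. This rule was set after the data were seen and took 0 livers of 3, 9 and 15 months. It rests largely on markers that rose with age. A call lost without these livers can come from fewer old livers or from the choice by markers, which were not told apart. In bulk RNA, fewer cells of a type and less RNA per cell cannot be told apart.

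Calls among the 10 genes came late. Against 3 months, 7 of 10 were lower at 24 months, beside 24.0% of all tested genes, and 7 of 10 were lower at 28 months, beside 30.0% of all tested genes. None of the 10 rose at either age, where 25.0% and 31.9% of all tested genes did, so that 49.0% and 61.9% passed in either direction. When the 11 livers that stood apart were left out, 5 of the 10 were lower at 24 months, beside 23.1% of all tested genes lower and 43.3% called in either direction. At 28 months 6 were lower, beside 27.9% lower and 54.2% called in either direction. The steepest fall was that of Cyp8b1, followed by the canalicular transporters Abcb11 and Abcb4, whereas Cyp7a1 did not pass at any age. The test was edgeR's quasi-likelihood test with Benjamini-Hochberg adjustment over all genes. By that test 0 of the 10 passed at 9 months and 0 at 15 months, beside 4.69% and 7.32% of all tested genes. At an unadjusted p under 0.05, 2 of the 10 passed at 9 months and 1 at 15 months. The share of all tested genes at that threshold was not counted. DESeq2 also called 0 at both ages, beside 5.62% and 7.25% of all tested genes. Limma voom called 0 as well, beside 2.03% and 6.21%. Log2 fold changes ran from -0.47 (Slc51b) to 0.32 (Cyp8b1) at 9 months and from -0.37 (Slc51b) to 0.10 (Cyp27a1) at 15 months. The median log2 fold change of the 10 genes was -0.36 at 24 months and -0.44 at 28 months, beside -0.01 and 0.01 over all tested genes. With the 4 age terms tested together, 7 of the 10 genes passed and 71.5% of all tested genes did. Apart from fits that left out 1 liver, this count ran from 5 in preparation 1 or 3 alone (beside 38.2% and 40.5%) upward. It was 9 with DESeq2 (72.3%), limma voom (69.6%) and a replicate block (70.1%). It reached 10 with the planned clock score described with the clock genes (68.3%).

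**Figure D1:**
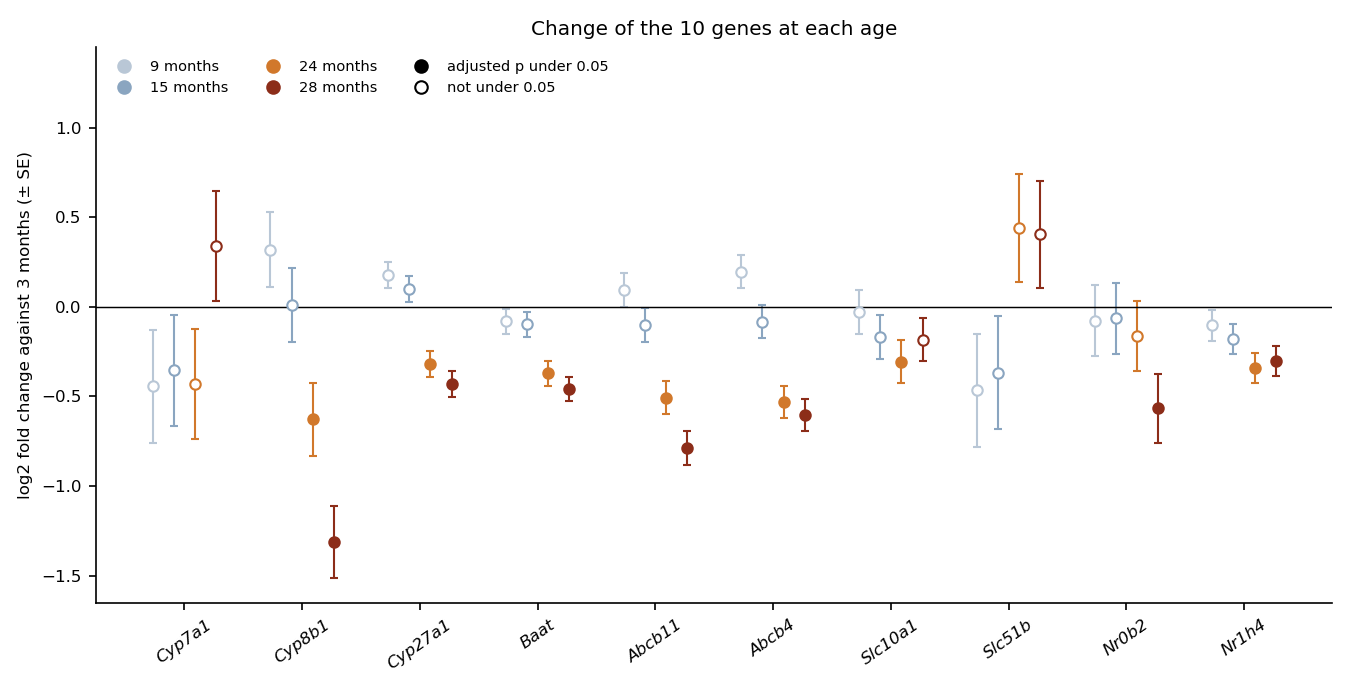
Log2 fold change against 3 months with its standard error for each of the 10 genes at 9, 15, 24 and 28 months; filled points passed the test at an adjusted p under 0.05. The points at 9 and 15 months are all open, and Cyp8b1 lies lowest at 28 months (-1.31).

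Cyp8b1 (ENSMUSG00000050445, chr9:121914356-121916305, minus strand, as all gene positions here in GRCm38) had the largest change of the 10 genes. Its lowest, median and highest values were 283, 546 and 916 CPM at 3 months, 516, 696 and 1087 CPM at 9 months, 238, 571 and 928 CPM at 15 months, 156, 388 and 572 CPM at 24 months, and 70.5, 208 and 612 CPM at 28 months. At 28 months 12 of 18 livers lay below the lowest 3-month liver and none above the highest, although the ranges overlapped. The mean was 583 ± 184 CPM at 3 months (SD, n = 16) and 234 ± 145 CPM at 28 months (SD, n = 18). This was a log2 fold change of -1.31 ± 0.20 (standard error, SE) with an edgeR adjusted p of 6.11e-08. At 24 months the log2 fold change against 3 months was -0.63 ± 0.20 (adjusted p 0.00825). Without the 11 livers that stood apart, these values were -1.19 (adjusted p 6.6e-06) at 28 months and -0.46 (adjusted p 0.0634) at 24 months, so the 24-month call was not kept.

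Cyp27a1 (ENSMUSG00000026170, chr1:74713574-74737892, plus strand), in the lowest, median and highest liver, stood at 490.4, 647 and 767 CPM at 3 months, 649, 736 and 836 CPM at 9 months, 499, 708 and 816 CPM at 15 months, 358, 564 and 615 CPM at 24 months, and 316, 455 and 773 CPM at 28 months. Of the 28-month livers 12 lay below the 3-month range and 1 above it. Against 3 months its log2 fold change was -0.43 ± 0.07 at 28 months (edgeR adjusted p 4.02e-07) and -0.32 ± 0.07 at 24 months (adjusted p 2.23e-04). Baat (ENSMUSG00000039653, chr4:49489422-49506557, minus strand) had the lowest coefficient of variation of any of the 10 genes at any age, 4.56% at 9 months. The lowest, median and highest livers had 268, 331 and 417 CPM at 3 months, 298, 318 and 345 CPM at 9 months, 260.3, 310.0 and 350.4 CPM at 15 months, 158, 265 and 329 CPM at 24 months, and 158, 245 and 320.1 CPM at 28 months. Below the 3-month range lay 9 of 17 livers of 24 months and 13 of 18 of 28 months. Its log2 fold change was -0.46 ± 0.07 at 28 months (edgeR adjusted p 2.29e-08) and -0.37 ± 0.07 at 24 months (adjusted p 7.91e-06). Both genes kept these calls without the 11 livers that stood apart, at smaller sizes of -0.32 and -0.33 at 28 months.

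Cyp7a1 (ENSMUSG00000028240, chr4:6265612-6275633, minus strand) varied widely between livers of 1 age, with a coefficient of variation from 51.7% at 15 months to 71.6% at 3 months. In the lowest, median and highest liver it stood at 22.2, 78.7 and 302 CPM at 3 months, 17.1, 66.8 and 159.5 CPM at 9 months, 13.3, 72.8 and 189.8 CPM at 15 months, 14.5, 62.4 and 173 CPM at 24 months, and 35.1, 108 and 279 CPM at 28 months. No 28-month liver lay outside the 3-month range. The log2 fold change against 3 months was 0.34 ± 0.31 at 28 months, with a 95% interval of -0.26 to 0.94 and an edgeR adjusted p of 0.337. Between 24 and 28 months it was 0.77 ± 0.30, with an edgeR adjusted p of 0.0680. The same comparison passed with DESeq2 (adjusted p 0.0498), limma voom (0.0197), the replicate number as a block (0.0256) and the planned clock score (0.0432), and when 24-month mouse 9 or 28-month mouse 10 was left out. With the 11 livers that stood apart left out, it was 0.83 between 24 and 28 months (adjusted p 0.0956) and 0.53 between 3 and 28 months (adjusted p 0.188). With all ages together, its adjusted p was 0.0503. Cyp7a1 passed that joint test with no preparation term, in preparation 2 alone, with the planned clock score and with the replicate block. DESeq2, limma voom and the fit without the 11 livers that stood apart also called it. Other size factors, no filter, preparations 1 and 3 alone and the signed clock score did not.

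**Figure D2:**
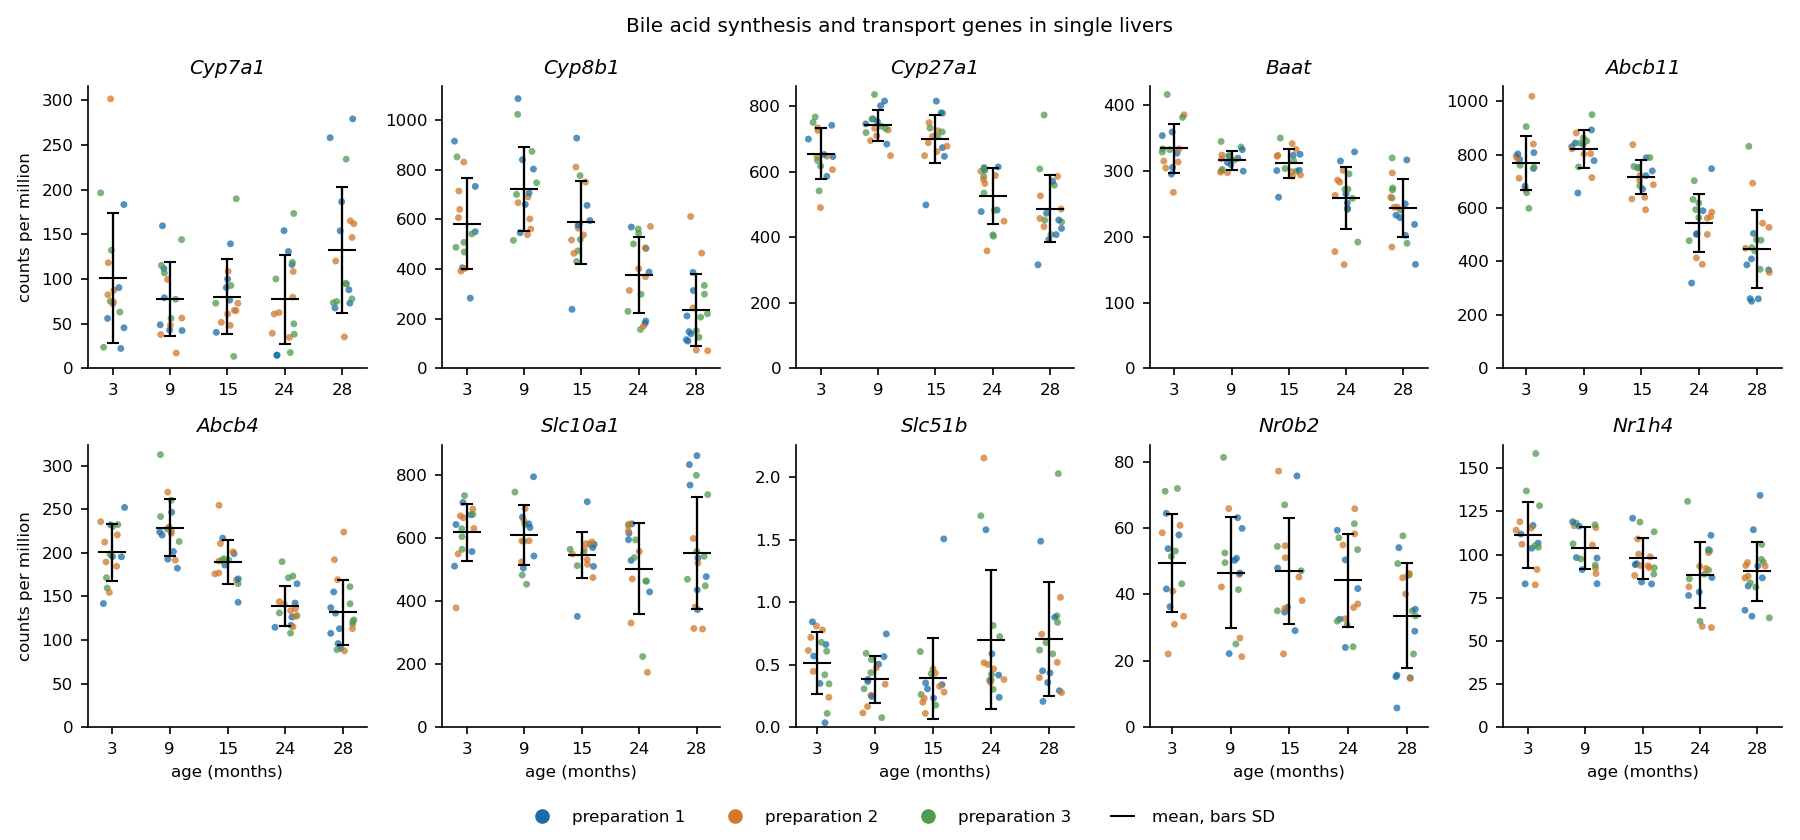
CPM (y axes, each from 0) of the 10 genes in every liver by age in months, coloured by library preparation, with the mean and SD in black. Cyp8b1, Abcb11 and Abcb4 sit lower at 24 and 28 months, and Slc51b stays near 1 CPM or below in most livers.

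Abcb11 (ENSMUSG00000027048, chr2:69238282-69342616, minus strand), the bile salt export pump of the canalicular membrane, had the smallest p of the 10 genes at 28 months. From lowest through median to highest liver, it stood at 599, 772 and 1019 CPM at 3 months, 657, 835 and 950.2 CPM at 9 months, 594, 722 and 838 CPM at 15 months, 319, 564 and 748 CPM at 24 months, and 251, 445 and 831 CPM at 28 months. Below the lowest 3-month liver lay 13 of 17 livers at 24 months and 16 of 18 at 28 months. The mean was 770.2 ± 101 CPM at 3 months (SD, n = 16) and 448 ± 146 CPM at 28 months (SD, n = 18). The log2 fold change was -0.79 ± 0.09 (edgeR adjusted p 2.90e-11) at 28 months and -0.51 ± 0.09 at 24 months (adjusted p 7.88e-06). Without the 11 livers that stood apart, it was -0.69 at 28 months and -0.39 at 24 months, and both passed. In an annotation of the same build, 155 bases of its exons overlap Gm13613 and Gm13614 on the opposite strand, and whether counting used the strand was not given in the sources used here.

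Abcb4 (ENSMUSG00000042476, chr5:8893717-8959231, plus strand), the floppase that supplies phosphatidylcholine to bile, followed a similar course. Its lowest, median and highest values were 142, 197 and 252 CPM at 3 months, 182, 225 and 313 CPM at 9 months, 143, 191 and 255 CPM at 15 months, 108, 134 and 190.0 CPM at 24 months, and 87.5, 122 and 224 CPM at 28 months. Below the 3-month range lay 11 of 17 livers of 24 months and 13 of 18 of 28 months, while 3 livers of 9 months lay above it. Its log2 fold change was -0.53 ± 0.09 at 24 months (edgeR adjusted p 1.55e-06) and -0.60 ± 0.09 at 28 months (adjusted p 2.20e-08), and both passed without the 11 livers that stood apart. Abcb4 was the only one of the 10 genes that passed between 24 and 3 months in each of the 3 preparations fitted alone.

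Slc10a1 (ENSMUSG00000021135, chr12:80953183-80968705, minus strand), which takes up conjugated bile acids from portal blood, passed at 24 months and not at 28 months, and the 24-month call rested on single livers. The lowest, median and highest livers had 379, 638 and 736 CPM at 3 months, 454, 613 and 796 CPM at 9 months, 352, 559.9 and 717 CPM at 15 months, 174, 539 and 646 CPM at 24 months, and 312, 529.6 and 863 CPM at 28 months. At 28 months 3 livers lay below and 5 above the 3-month range. Against 3 months it was at a log2 fold change of -0.31 ± 0.12 at 24 months (edgeR adjusted p 0.0292), a call lost when 24-month mouse 8, 10 or 13 was left out (highest adjusted p 0.0611). Those 3 mice are among the 11 livers that stood apart, without which the value was -0.13 (adjusted p 0.273). At 28 months it was -0.18 ± 0.12 (adjusted p 0.174), and without those 11 livers it was -0.0021 (adjusted p 0.989).

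Slc51b (ENSMUSG00000053862, chr9:65412714-65422955, minus strand), the beta subunit of the basolateral exporter, was close to the limit of measurement. Single livers held 1 to 84 counts, and its partner subunit Slc51a had at most 7 counts in any liver and did not pass the filter. The lowest, median and highest values of Slc51b were 0.0350, 0.588 and 0.843 CPM at 3 months, 0.0758, 0.373 and 0.746 CPM at 9 months, 0.110, 0.317 and 1.51 CPM at 15 months, 0.238, 0.465 and 2.15 CPM at 24 months, and 0.206, 0.601 and 2.03 CPM at 28 months. The ranges of all ages overlapped, with 3 livers of 24 months and 5 of 28 months above the 3-month range. Its log2 fold change against 3 months was 0.40 ± 0.30 at 28 months (edgeR adjusted p 0.235). Between 15 and 24 months it was 0.81 ± 0.31 (adjusted p 0.0326), a call lost when any 1 of 6 livers was left out, namely mouse 5, 13 or 14 of 15 months or mouse 8, 10 or 15 of 24 months. Over all 83 fits that left out 1 liver, it ran from 0.56 to 1.11, and without the 11 livers that stood apart it was 0.45 (adjusted p 0.285). With no filter, the planned clock score, a replicate block, limma voom, or preparation 1 or 3 alone, that call was also lost. It held with DESeq2, other size factors, no preparation term, only those ages fitted, the signed clock score and preparation 2 alone. Exons of Slc51b share 91 bases with Rasl12 on the opposite strand.

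Nr1h4 (ENSMUSG00000047638, chr10:89454234-89533585, minus strand), the bile acid receptor, fell by less than 0.5 on the log2 scale. Values in the lowest, median and highest liver were 82.5, 109 and 159 CPM at 3 months, 83.1, 102 and 119 CPM at 9 months, 83.0, 93.9 and 121 CPM at 15 months, 57.7, 88.6 and 131 CPM at 24 months, and 63.3, 90.4 and 134 CPM at 28 months. Below the 3-month range lay 6 livers of 24 months and 5 of 28 months. Its log2 fold change was -0.34 ± 0.08 at 24 months (edgeR adjusted p 4.82e-04) and -0.30 ± 0.08 at 28 months (adjusted p 0.00105). Without the 11 livers that stood apart the 28-month value was -0.17 (adjusted p 0.0551), while the 24-month value of -0.26 passed.

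Nr0b2 (ENSMUSG00000037583, chr4:133553376-133556536, plus strand), the repressor that FXR induces, passed at 28 months and not at 24 months. Its lowest, median and highest livers had 22.1, 52.3 and 72.0 CPM at 3 months, 21.3, 48.0 and 81.4 CPM at 9 months, 22.1, 46.2 and 77.2 CPM at 15 months, 24.0, 41.8 and 65.9 CPM at 24 months, and 5.77, 35.3 and 57.7 CPM at 28 months. Below the 3-month range lay 0 of 17 livers at 24 months and 5 of 18 at 28 months. The log2 fold change was -0.57 ± 0.19 at 28 months (edgeR adjusted p 0.00866) and -0.16 ± 0.20 at 24 months (adjusted p 0.508). Without the 11 livers that stood apart, the 28-month value was -0.54 (adjusted p 0.0206). The difference between 28 and 24 months was -0.40 ± 0.19 and did not pass (adjusted p 0.142).

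Between neighbouring ages, the most calls lay between 15 and 24 months. Of the 10 genes 0 passed between 9 and 15 months, where 0.0514% of all tested genes passed (edgeR). At an unadjusted p under 0.05, 2 passed there, and the share of all tested genes at that threshold was not counted. DESeq2 and limma voom called 0, each beside 0.0642% of all tested genes. Between 15 and 24 months 5 fell (Cyp8b1 -0.64 ± 0.21, Abcb4 -0.45 ± 0.09, Cyp27a1 -0.42 ± 0.07, Abcb11 -0.41 ± 0.09 and Baat -0.27 ± 0.07 on the log2 scale) and Slc51b rose, beside 36.0% of all tested genes (14.4% lower, 21.6% higher). With the 11 livers that stood apart left out, Cyp27a1 (-0.35), Baat (-0.18), Abcb11 (-0.30) and Abcb4 (-0.44) still passed between 15 and 24 months, beside 24.5% of all tested genes (12.3% lower). Cyp8b1 (-0.47, adjusted p 0.0842) and Slc51b did not. Between 24 and 28 months 2 fell, beside 15.3% of all tested genes (9.13% lower). These were Cyp8b1 (-0.68 ± 0.20, edgeR adjusted p 0.0113) and Abcb11 (-0.28 ± 0.09, adjusted p 0.0253). The Abcb11 call was lost when 24-month mouse 4 or 28-month mouse 7 or 9 was left out, with a highest adjusted p of 0.0645. Both passed without the 11 livers that stood apart, at -0.74 for Cyp8b1 (adjusted p 0.0164) and -0.30 for Abcb11 (adjusted p 0.0262). Both calls were lost with only those ages fitted (adjusted p 0.0934 for Cyp8b1 and 0.159 for Abcb11), with the planned clock score described with the clock genes (0.0726 and 0.0603) and with its signed form (0.487 for each). The Abcb11 call was also lost with the replicate number as a block (adjusted p 0.0516), and in preparation 2 alone its value was 0.040. In the order of ages, no pair of neighbours up to 15 months differed past the threshold for any of the 10 genes.

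Per kilobase of exon, the order of the mean levels changed for several genes. At 3 months it ran from Cyp27a1 at 302 CPM per kilobase through Cyp8b1 at 299, Slc10a1 at 282, Baat at 173 and Abcb11 at 149.7 to Nr1h4 at 48.4, Nr0b2 at 43.7, Cyp7a1 at 24.3, Abcb4 at 21.4 and Slc51b at 0.725. At 28 months Slc10a1 stood first at 252 CPM per kilobase and Cyp8b1 stood at 120.2, below Baat at 126, while Cyp7a1 at 31.7 stood above Nr0b2 at 29.7. These orders are descriptions of mean levels and were not tested.

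Most of the 10 genes varied more between the oldest livers than between the youngest. The SD of log2 CPM was larger at 28 than at 3 months for 8 of 10 genes, beside 60.9% of all tested genes. It went from 0.47 to 0.88 for Cyp8b1, from 0.18 to 0.46 for Abcb11, from 0.24 to 0.46 for Slc10a1 and from 0.47 to 0.89 for Nr0b2. Without the 11 livers that stood apart it was larger for 8 of 10 genes, beside 41.7% of all tested genes, with Abcb11 at 0.53 and Cyp8b1 at 0.96. These were not the same genes: Nr1h4 went from 0.24 at 3 months to 0.20 at 28 months, Slc51b was at 0.91 at both ages, and Baat went from 0.16 to 0.17. Cyp7a1 had the reverse order in both sets, from 1.01 at 3 months to 0.79 in all livers of 28 months. No test was made of these spreads.

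Clock genes also differed at 28 months, and Cyp7a1 is known for a daily rhythm. Of 16 clock genes 8 were higher and 5 lower at 28 months than at 3 months, beside 61.9% of all tested genes called, with Ciart at 4.03, Per3 at 3.57, Npas2 at -1.36 and Arntl at -0.94 on the log2 scale. Dbp, a clock output factor that binds the D-box, had medians of 1.12 CPM at 3 months and 27.6 CPM at 28 months, and its 28-month livers ran from 1.13 to 166 CPM. At 24 months 1 clock gene was higher and 2 lower, beside 49.0% of all tested genes called. The planned clock score of each liver was the mean of these genes on a standardised scale. With it in the model, 9 of the 10 genes passed between 28 and 3 months, beside 59.7% of all tested genes. Nr0b2 stayed lower (-0.68, edgeR adjusted p 0.00333), Slc10a1 was lower (-0.43, adjusted p 0.00203) and Slc51b was higher (0.89, adjusted p 0.0197). A signed clock score counted the genes that peak opposite to Dbp in reverse, and its median was -0.58 at 3 months, -0.27 at 24 months and 0.80 at 28 months. When the signed score entered the model, an alternative added after the data were seen, 7 of the 10 genes passed between 28 and 3 months, beside 52.4% of all tested genes. Nr0b2 no longer passed (-0.46, edgeR adjusted p 0.0873), Slc10a1 did (-0.50, adjusted p 0.00229), and Cyp8b1 moved from -1.31 to -0.89 (adjusted p 8.8e-04). Between 28 and 24 months the fit with the signed score called 0 of the 10 genes and 0.995% of all tested genes, against 15.3% without a score, and the planned score called Cyp7a1 alone, beside 8.56%. The part of the clock genes in these differences was not tested further.

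Within the preparations the falls kept their sign for most genes, at 4 to 7 livers per age. Between 28 and 3 months, Cyp8b1 was at -1.53, -1.03 and -1.37 in preparations 1, 2 and 3. Abcb11 was at -1.15, -0.64 and -0.53, and passed in all 3. The log2 fold change of Nr0b2 was -1.08, -0.09 and -0.52 and passed in preparation 1 alone. Fitted alone, the preparations called 6, 2 and 5 of the 10 genes, beside 39.9%, 15.6% and 42.2% of all genes tested in each.

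**Figure D3:**
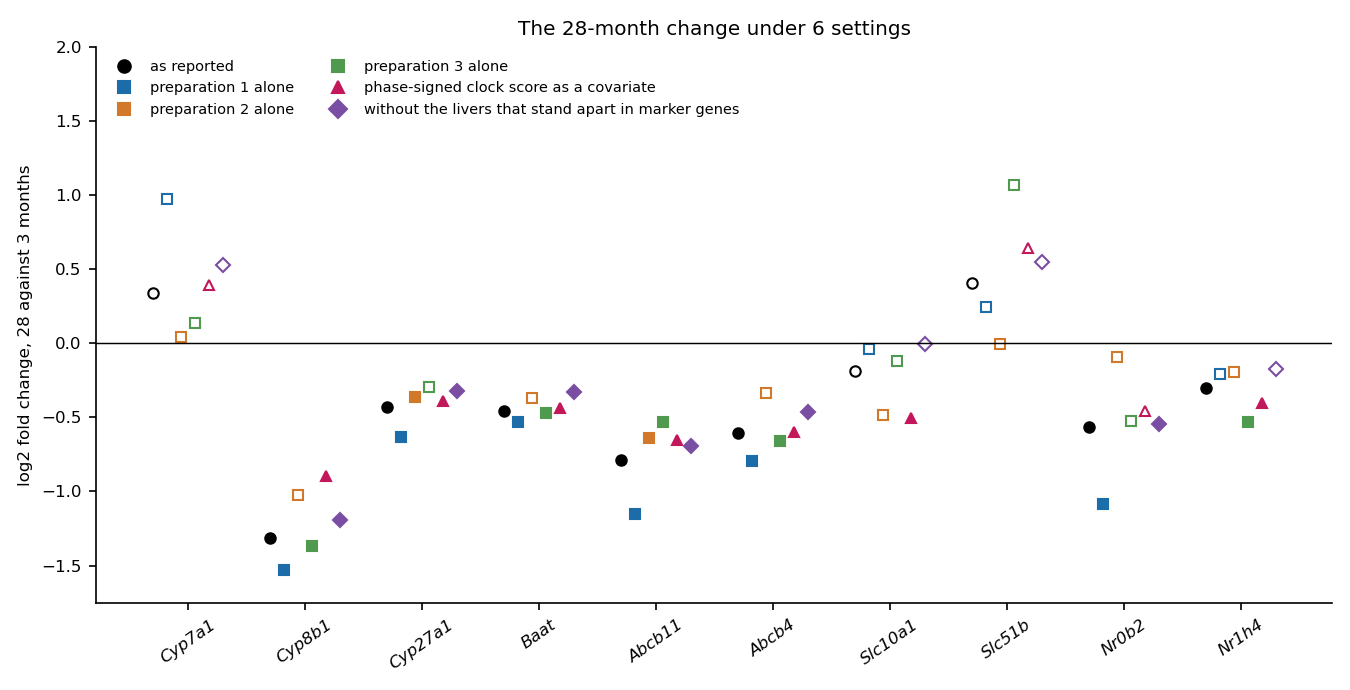
Log2 fold change from 3 to 28 months of the 10 genes as reported, in each preparation alone, with the signed clock score as a covariate, and without the 11 livers that stood apart in marker genes. Filled symbols have an adjusted p under 0.05. All genes but Cyp7a1 and Slc51b lie below zero under all 6 settings, though not all of these values pass.

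Across livers, the repressor Nr0b2 and the enzyme Cyp7a1 varied in opposite directions. After the means of age and preparation were removed, Pearson's r of their log2 CPM was -0.38 over 83 livers (permutation p 2.2e-04, adjusted p 0.00242 over 11 pairs), and Spearman's rho was -0.37 (permutation p 6.6e-04, adjusted p 0.00726). Without the 2 livers farthest from the median of Nr0b2, r was -0.36, and without the 11 livers that stood apart it was -0.43 (adjusted permutation p 0.00176). The sign was negative at every age, with r of -0.70 at 3 months, -0.59 at 9 months, -0.09 at 15 months, -0.16 at 24 months and -0.46 at 28 months. It was also negative in each preparation (-0.32, -0.43 and -0.43), where it did not pass by itself. This was the only one of the 11 pairs computed that passed.

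**Figure D4:**
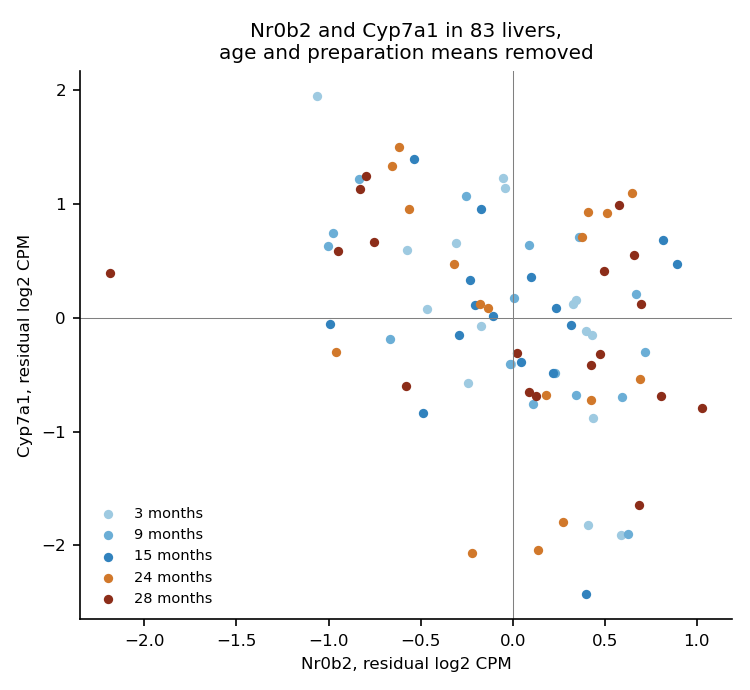
Residual log2 CPM of Nr0b2 (x axis) against that of Cyp7a1 (y axis) in 83 livers, after the means of age and preparation were removed, coloured by age. The cloud slopes downward with r = -0.38.

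The other 10 pairs had values of r from -0.22 (Cyp8b1 and Dbp, adjusted permutation p 0.286) to 0.23 (Nr0b2 and Cyp8b1, adjusted permutation p 0.286). Nr1h4 and its target Nr0b2 had an r of -0.04, and Nr1h4 and Abcb11 had an r of -0.03. Cyp7a1 and Dbp had an r of -0.14 over all livers, with -0.63 at 3 months and 0.54 at 28 months, and the difference between those ages was not tested. Over all 45 pairs of the 10 genes, as a description, r was positive for 32, with a median of 0.23. The highest values joined Baat with Slc10a1 (0.66), Baat with Cyp27a1 (0.64) and Slc10a1 with Nr1h4 (0.59). All of these values share the same 83 libraries. The share of positive values was not counted over other genes, and differences in cell content between livers were not removed.

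Genes most like each of the 10 were found among 12757 genes (12758 for Slc51b) by r over the 83 livers, with the same means removed. Cyp27a1 was most like Coasy (0.83) and Pttg1ip (0.80), Baat was close to Gm45769 (0.83), and Slc10a1 was close to Shpk (0.81). Abcb4 was most like Vwa8 (0.79) and Dcaf8 (0.75), Abcb11 most like Tex2 (0.74) and C2cd2 (0.72), Cyp8b1 most like Ethe1 (0.74) and Uck1 (0.72), and Nr1h4 most like Plpp3 (0.70) and Shpk (0.64). The closest genes were less close for Cyp7a1 (Utp14b 0.56, Wrb 0.53), Nr0b2 (Arl4a 0.56, Bbc3 0.55) and Slc51b (Nudt18 0.54, Fam81a 0.54).

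Further genes of the pathway changed in both directions between 3 and 28 months, where 31.9% of all tested genes rose and 30.0% fell. Of 15 other synthesis genes 9 fell and 1 rose, with a median log2 fold change of -0.62. Cyp7b1, the hydroxylase of the alternative route, had lowest, median and highest values of 121, 258 and 783 CPM at 3 months and of 50.5, 95.3 and 249 CPM at 28 months (log2 fold change -1.57 ± 0.19, edgeR adjusted p 1.23e-10). Scp2 and Abcd3, which serve the peroxisomal shortening of the side chain, were at -1.31 ± 0.10 and -1.31 ± 0.14. Hsd3b7, the next enzyme of the ring pathway, fell by 0.73 on the log2 scale (SE 0.12), and Akr1d1, which reduces the ring, was at 0.43 ± 0.10. Slc27a5, which activates bile acids for Baat, was at 0.07 ± 0.07 (edgeR adjusted p 0.342) and kept a mean near 936 CPM at 3 months and 992 CPM at 28 months.

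Of 10 tested transport genes outside the main set, 5 rose and 2 fell, a share called that is near the 61.9% of all tested genes. Slco1a1, a sodium-independent uptake carrier known to be more abundant in male than in female mouse liver, had lowest, median and highest values of 299, 532 and 686 CPM at 3 months, 0.191, 71.5 and 412 CPM at 24 months, and 0.0248, 0.560 and 144 CPM at 28 months. No 28-month liver reached the 3-month range, and the log2 fold change was -6.28 ± 0.72 (edgeR adjusted p 1.20e-11). Its relative Slco1a4 had lowest, median and highest values of 26.5, 48.5 and 80.1 CPM at 3 months and of 36.0, 149.8 and 302 CPM at 28 months (1.69 ± 0.21, adjusted p 1.84e-10). Reads shared between members of this family could be split by the counting, so both values carry that uncertainty. Abcc4, a basolateral exporter of bile acids, was at 2.91 ± 0.81 CPM (SD, n = 16) at 3 months and 8.85 ± 2.72 CPM (SD, n = 18) at 28 months (log2 fold change 1.59 ± 0.15, edgeR adjusted p 2.27e-14). Slco1b2, the main hepatic uptake carrier for unconjugated bile acids, was at -0.37 ± 0.08.

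Of 11 tested regulators 2 rose and 2 fell. Those that rose were Nr1i3 (0.61 ± 0.16) and Fgfr4 (0.25 ± 0.06), and Hnf4a (-0.29 ± 0.09) was among those that fell. Klb, the partner of Fgfr4 in sensing the gut hormone Fgf15, was at 0.19 ± 0.12 (edgeR adjusted p 0.155), and Nr5a2, an activator of Cyp7a1 and Cyp8b1, was at -0.03 ± 0.07 (adjusted p 0.754). Of 5 tested genes of bile acid detoxification 3 fell and 1 rose, namely Sult2a8 (-2.12 ± 0.27), Ephx1 (-1.05 ± 0.10), Cyp3a11 (-0.53 ± 0.15) and Ugt1a1 (0.46 ± 0.09). The median log2 fold changes of the transport, regulator and detoxification lists were 0.26, -0.05 and -0.53, beside 0.01 over all tested genes. In the fit without the 11 livers that stood apart, Hnf4a (-0.16, edgeR adjusted p 0.133) and Cyp3a11 (-0.32, adjusted p 0.0792) no longer passed, while Slc27a5 (0.19, adjusted p 0.00522) and Klb (0.33, adjusted p 0.0140) did.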

How the data were processed

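Liver RNA of 83 mice was sequenced as paired reads of 100 bases. The authors deposited whole-number counts per gene, raw and not normalized, and all columns of the liver table were used (0 left out). Per the submitters' processing notes, cutadapt 2.8, HISAT2 2.1.0, SAMtools 1.9 and featureCounts (Subread 2.0.1) were used with GRCm38.p6 (mm10); the annotation, the strand setting and the handling of reads shared between genes are not given in the sources used here. Symbols matched 55144 of 55471 identifiers, and gene positions and exons came from GENCODE M21 of the same build (GRCm38).

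Counts were fitted with edgeR 4.0.16 in R 4.3.3 (filterByExpr by age, TMM, two-sided quasi-likelihood tests, terms for age and preparation, all livers in 1 fit), with Benjamini-Hochberg adjustment over 15579 genes and calls at an adjusted p under 0.05. Levels are CPM of the TMM-scaled library. SE was taken as the size of the log2 fold change over the root of its F statistic. Correlations used log2 CPM with a prior count of 2 and 100000 permutations within age. Named genes were the 10 genes, the called genes with the 2 highest and 2 lowest changes of each further list, a few fixed pathway genes, and the 2 genes most like each of the 10. A few genes that this rule names are not reported here. The 10 genes, the lists and the tests were chosen with earlier results of these data known. Intervals cover counting error and spread between mice, and 1 library per mouse was made, so that technical and animal variation are not separated.

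Alternatives were other size factors, no filter, no preparation term, each preparation alone, only the ages compared, clock covariates, a replicate block, limma 3.58.1 voom, DESeq2 1.42.0, leaving out each liver, and leaving out 11 livers. The signed clock score and leaving out the 11 livers were added after the data were seen. On simulated counts for 28 against 3 months (15526 genes), the test recovered 24% of genes changed 1.3-fold, 86% changed 1.5-fold and 98% changed 2-fold. There, 50 genes were changed at each size and no preparation effect was put in. In the data 61.9% of tested genes were called, so these rates do not give the power of the reported test.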

Additional observations from a re-analysis of the deposited data

How the results depend on the processing

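The 7 calls between 28 and 3 months held in all 83 fits that left out 1 liver. Every fit that left out 1 liver kept the gene filter, size factors and dispersions estimated from all 83 livers. Single-gene changes were followed for 30 of the 70 pairs of a gene and a comparison: all 10 genes at 24 and 28 against 3 months, and the called or discussed ones between neighbouring ages. Among their alternative values, 380 kept direction and side of the threshold, 58 no longer passed, 8 newly passed and 4 turned direction. Alternatives that leave few livers called fewer of the 10 genes: preparations 1, 2 and 3 alone called 1, 4 and 4 at 24 against 3 months (beside 5.83%, 15.5% and 33.4% of all genes), preparation 2 called 2 at 28 against 3 months (15.6%) and 11 of the other pathway genes, and preparations 1 and 3 called 0 and 1 at 24 against 15 months (0.0193% and 8.09%). At 28 against 24 months the count went from 2 (beside 15.3% of all genes) to 0 in preparation 2 (0%), in preparation 3 (1.24%), with only those ages fitted (7.57%) and with the phase-signed clock score (0.995%), to 1 with the unsigned clock score (Cyp7a1, with both reported calls lost, 8.56%), to 4 with limma voom (adding Cyp7a1 and Cyp27a1, 26.7%), and ran from 1 to 3 over fits that left out 1 liver; the cause was not tested.

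Among the 30, directions turned for Cyp7a1 (0.11, preparation 1) and Nr0b2 (0.20, preparation 2) at 24 against 3 months, for Slc51b at 28 against 3 months (-0.0026, preparation 2) and for Abcb11 at 28 against 24 months (0.040, preparation 2). Over all 70 and every alternative but leaving out single livers, 43 of 910 values turned, 27 of them in single preparations; 1 belonged to a reported call (Abcb11), and 0 passed in the turned direction. For Nr0b2 and Cyp7a1, r did not pass within preparations (-0.32, -0.43 and -0.43). No other pair passed, and signs turned for Nr1h4 and Nr0b2 (0.10 with age kept, 0.038 without the 2 farthest livers, 0.19 in preparation 2), Nr1h4 and Abcb11 (0.33, 0.053 and 0.38 likewise), Cyp7a1 and Cyp8b1 (-0.11 with age kept, -0.031 in preparation 3), Nr0b2 with Slc10a1 and Slc51b (-0.059 and 0.19, preparation 1; -0.14 for Slc10a1 without the 11 livers), Abcb11 and Slc10a1 (-0.020, preparation 1; -0.22 without the 11 livers), Cyp7a1 and Dbp (0.045 with age kept, 0.064 in preparation 2), and Nr0b2 and Dbp (0.00036 without the 2 farthest livers, 0.19 in preparation 3, 0.042 without the 11 livers).

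Replicate numbers did not pair the mice: over 161 same-numbered pairs the median correlation was 0.0091 and 33 exceeded 0.1. With a replicate block, 7 of the 10 genes passed at 28 against 3 months, 7 at 24 against 3 months, 5 at 24 against 15 months and 2 (Cyp7a1 and Cyp8b1) at 28 against 24 months, beside 60.9%, 48.6%, 35.8% and 13.7% of all tested genes. Depth limits Slc51b, with as few as 1 count in a liver, while the next lowest of the 10 genes was Cyp7a1 with 76 counts.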

Other observations

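Sult2a1, a sulfotransferase of bile acids known to be more abundant in female than in male mouse liver, was left out by the filter on low counts. It was at or under 3 counts in 15 of 16 livers of 3 months, 16 of 16 of 9 months, 16 of 16 of 15 months and 15 of 17 of 24 months, but in 6 of 18 livers of 28 months, where single livers reached 36.0 CPM and 1355 counts. The near-identical copies of this gene family make its counts uncertain. Vdr, a receptor for the bile acid lithocholic acid, was also filtered out, with means of 0.0700 CPM at 3 months and 0.324 CPM at 28 months. Fgf15, the gut hormone that represses Cyp7a1, had at most 1 count in any liver, and Gpbar1 at most 6 counts. None of these was tested.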
